A study of Oryctolagus cuniculus with 8 samples.

Results

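PAX6, GSC and KLF5 are genes of DNA-binding proteins that steer early development, and their RNA was followed here in rabbit induced pluripotent stem (iPS) cells, embryonic stem (ES) cells and body cells. A probe was counted as a member when the accession printed beside it in the array files belonged to 1 of the 3 genes in a RefSeq gene table of the rabbit, and control spots were left out. This gave 9 of 43603 probes, for 3 of the 680 genes that could be named. PAX6 had 1 probe (A_04_P002406, NM_001082217), printed as 5 spots on every array. GSC had 1 probe (A_04_P001366, NM_001099959) and KLF5 had 7 (NM_001082053), each printed as 1 spot. The KLF5 probes are numbered from the brightest (probe 1, A_04_P069346) to the dimmest (probe 7, A_04_P101952) by their mean level over the 8 arrays.

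The cells were cultured cells of Dutch rabbits, with 1 single-colour array for each of 8 samples. iPS cells are body cells turned back to an embryo-like state. Late passage iPS cells were the liver line iPS-L1 at passage 23 and the stomach line iPS-S1 at passage 22. Early passage iPS cells were the same lines at passages 7 and 6. ES cells were the lines rdES4 and rdES2-1. The somatic cells were 1 culture of liver cells and 1 of stomach cells, grown in a different medium from the ES and iPS cells, so that medium and cell type cannot be told apart. Which factors were used for reprogramming is not given in the labels, and each iPS origin is represented by 1 line. Separate animals or cultures are not stated for the samples of a group, so the spread behind each p-value is that of these 8 samples and may be partly technical.

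PAX6 carries a paired domain and a homeodomain and is known for its role in forming the eye, the forebrain and the islets of the pancreas. GSC (goosecoid) is a homeodomain protein that marks the organizer of the frog and mouse gastrula, where Nodal and activin signals switch it on. KLF5 is a zinc finger protein of the Krüppel-like family, which in the mouse supports the self-renewal of ES cells and the dividing cells of the gut lining. All are regulators of transcription, whose RNA is often scarce in bulk samples.

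Signals below are the scanner software's processed intensities, before scaling between arrays, with its own error estimate after the ± sign. Levels are log2 signals minus the 75th percentile of the array, so that 0 is that percentile. The 75th percentile was 296.9 to 341.5 on the 4 iPS arrays, 273.8 and 310.2 on the ES arrays, and 163.8 and 154.8 in liver and stomach cells, so that scaled levels of the somatic cells are raised relative to their signals. The lowest signal marked well above background lay between 6.16 and 8.28 on the 8 arrays, and the median of the negative control spots between 1.47 and 1.85. The brightest negative control spot read 16.2 in rdES4 and 17.7 in rdES2-1. It read 14.2 and 16.2 in the early liver and stomach lines, 5.25 and 34.4 in the late ones, and 7.43 and 5.23 in liver and stomach cells. A dim value marked well above background can thus lie below the brightest such spot. POU5F1, the core factor of pluripotency, had levels of 7.08 to 7.62 on the iPS arrays, 7.14 and 6.69 in ES cells, and -3.63 and -3.46 in liver and stomach cells. It was thus high on every iPS and ES array and low in both somatic cultures. The albumin gene ALB, which defines liver cells, did not rise well above background even in liver cells, and the stomach gene ATP4B did not do so in stomach cells. Other genes of the same lists differed. Of the hepatocyte list, APOA1 was also not well above background on any array, but TF, APOE, HP, HPX and RBP4 were so on all 8. Of the gastric list, PGC was well above background on all 8 arrays and ATP4A on 7. In a bulk sample, fewer cells of a type and less RNA per cell cannot be told apart.

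PAX6 was lower in iPS cells than in somatic cells, and least of all in early passage iPS cells. Its signal was 121.4 ± 12.3 in the late liver line and 86.0 ± 8.75 in the late stomach line. At early passage it was 5.41 ± 1.82 in the liver line, not well above background, and 31.3 ± 3.65 in the stomach line. ES cells gave 139.7 ± 14.1 in rdES4 and 323.5 ± 32.4 in rdES2-1, and the somatic cells 442.9 ± 44.4 in liver and 102.1 ± 10.3 in stomach. Liver cells were thus the brightest array and early liver iPS cells the dimmest. In unscaled signal the stomach cells lay below both ES lines and below late liver iPS cells, while on the scaled level used for the tests they lay above all 4 iPS arrays.

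**Figure D1:**
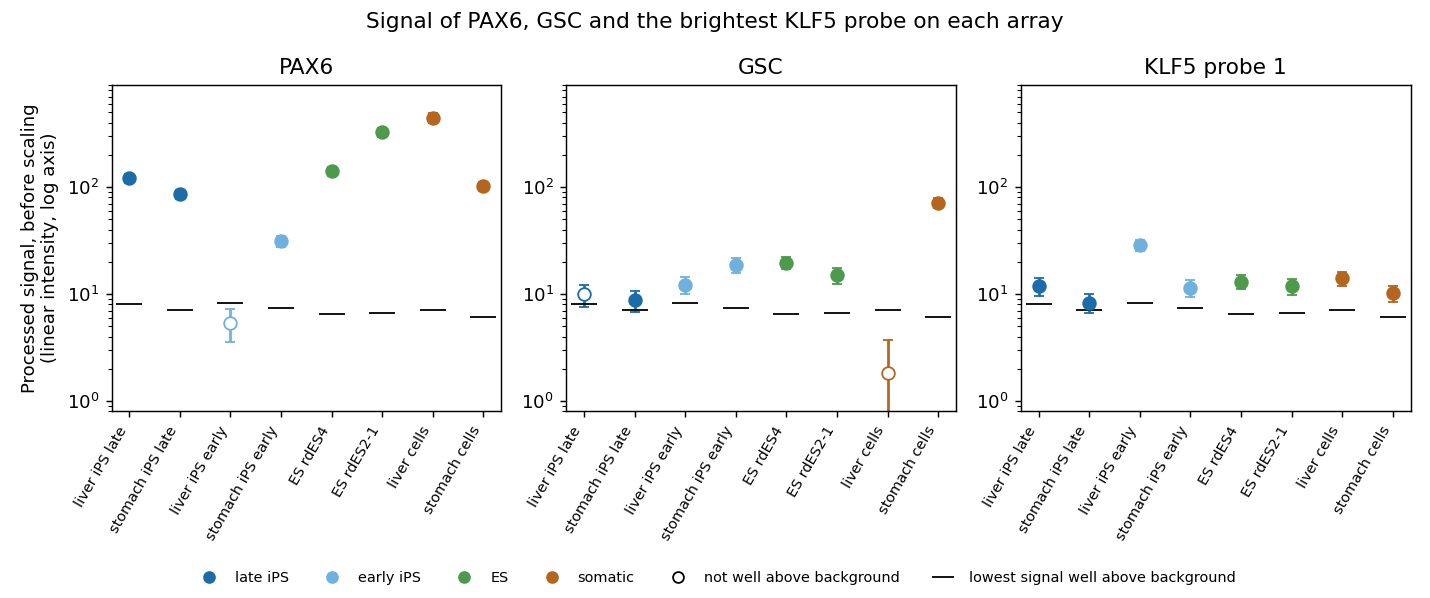
Processed signal (linear intensity on a log axis) of PAX6, GSC and the brightest KLF5 probe on each of the 8 arrays, with the scanner software's error as bars, cut off where they pass the bottom of the axis. Open points are not well above background: PAX6 in early liver iPS cells, and GSC in late liver iPS cells and liver cells.

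The 5 spots of the PAX6 probe show how finely an array measured it. The SD between spots was at most 0.12 on the log2 scale on the 6 arrays of late iPS, ES and somatic cells, 0.23 in the early stomach line and 0.28 in the early liver line. In the early liver line 4 spots read 4.61 to 7.06, none of them well above background. The scanner software had marked the remaining spot as outlying, so that it was left out of the mean. That spot read 16.9 and was well above background. With marked spots kept, the log2 difference of PAX6 between iPS and somatic cells was -3.47 (limma, adjusted p = 0.0138). In the early stomach line the spots ranged from 25.1 to 37.2, without overlap with the early liver line. Both early arrays lay below every spot of the other 6 arrays, while the spots of stomach cells (93.9 to 115.5) reached those of the late liver line (112.6 to 127.9).

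**Figure D2:**
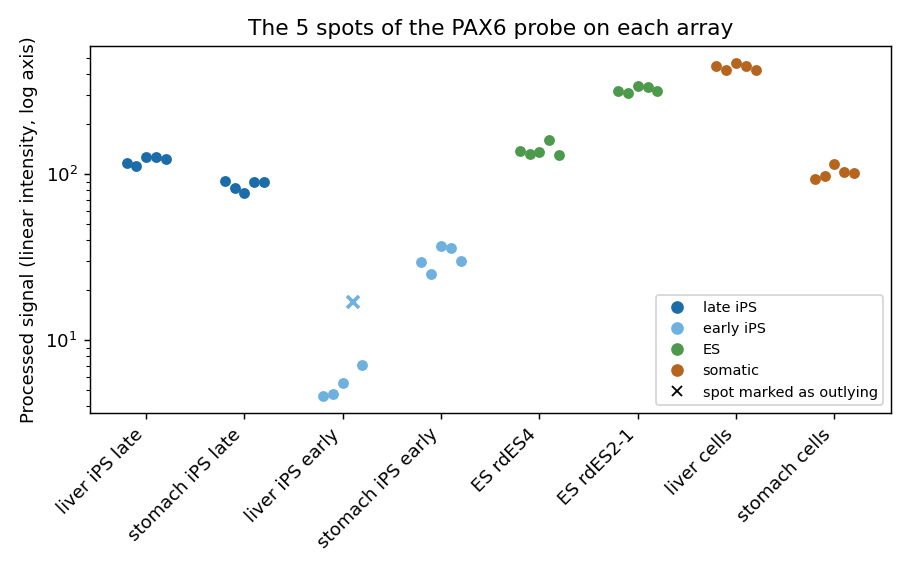
Processed signal (linear intensity on a log axis) of each of the 5 spots of the PAX6 probe on each array, coloured by group, with the spot marked as outlying drawn as a cross. The 5 spots lie close together on every other array, and the early iPS arrays lie below all others.

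On the scaled level, PAX6 averaged -3.14 ± 0.85 in iPS cells (SD, n = 2 lines, passages averaged) and 0.42 ± 1.44 in somatic cells (SD, n = 2), an 11.7-fold lower level in iPS cells, with 3 of the 4 iPS arrays well above background. The log2 difference was -3.55 ± 0.82 (SE, 95% interval -5.65 to -1.45, limma, adjusted p = 0.0140). All 4 iPS levels, between -5.98 and -1.49, lay below both somatic levels of -0.60 and 1.44, as the groups of 77.8% of all tested probes did not overlap in this comparison. PAX6 was the only member called, 1 of 6 tested member probes, while 66.6% of all 28853 tested probes passed the same threshold, 32.4% as lower and 34.2% as higher in iPS cells. With tissue of origin as a replicate block the difference was -3.55 (adjusted p = 0.0568), so the call did not hold. With slide as a block it was -4.40 and was not called either. In that fit the stomach line was the only unit on slide 3, so the iPS value came from the liver line alone. Without the early liver iPS array the difference was -2.43 (adjusted p = 0.0428), without liver cells -2.54, without stomach cells -4.57 and without the late liver iPS array -4.67, and each of these passed. A fit without 1 somatic culture assumes that the lone somatic sample varies like the other groups.

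Within each origin the order was the same, with iPS cells below the cultured cells of the same tissue (its cells of origin here, though the labels do not say that the lines came from these cultures). In the liver line PAX6 was 7.61-fold lower than in liver cells at late passage and at least 111.3-fold lower at early passage. In the stomach line it was 2.28-fold lower than in stomach cells at late passage and 6.43-fold lower at early passage. These folds are of scaled levels. In unscaled signal the late stomach line was at 86.0 ± 8.75 and stomach cells at 102.1 ± 10.3, with overlapping scanner errors. Of all tested probes, 56.7% differed less for the late stomach pair and 85.2% for the early one. For the liver pairs it was 88.1% at late and 99.2% at early passage. The liver arrays shared slide 1, while the stomach iPS arrays were on slide 3 and the stomach cells on slide 2. The liver and stomach cells themselves differed 4.10-fold, which exceeds the gap between late stomach iPS cells and stomach cells.

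With passage, PAX6 was higher at late than at early passage in both lines, but this did not pass the test. The late mean was -1.64 ± 0.21 and the early mean -4.63 ± 1.90 (SD, n = 2 arrays each), with a log2 difference of 2.99 ± 1.02 (SE, 95% interval 0.49 to 5.49, limma, adjusted p = 0.559). Late over early was at least 14.6-fold in the liver line and 2.83-fold in the stomach line. In the stomach line, where both arrays were well above background, 97.3% of all tested probes differed less between the passages. Both pairs were on 1 slide each. Without the early liver iPS array the log2 difference was 1.65 (adjusted p = 1.00), and without the early stomach iPS array 4.34 (adjusted p = 0.307). At early passage the stomach line stood at least 4.22-fold above the liver line, and at late passage the stomach line was at 0.81 times the liver line.

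Against ES cells, PAX6 in iPS cells differed by -2.68 ± 0.82 (SE, 95% interval -4.78 to -0.58, limma, adjusted p = 0.589), with an ES mean of -0.46 ± 0.73 (SD, n = 2 lines). The 4 iPS levels lay below both ES levels, -0.97 and 0.06, as the groups of 23.9% of all tested probes did not overlap. The late liver line lay 1.43-fold below rdES4 on the same slide, a smaller gap than the 2.05-fold between the ES lines, and the early liver line at least 21.0-fold below it. ES and somatic cells overlapped in PAX6, with a difference of -0.87 ± 0.82 (SE, 95% interval -2.97 to 1.23, adjusted p = 0.388), and without liver cells it was 0.14 (adjusted p = 0.867). On the scaled level the 8 arrays ran, from high to low, liver cells, rdES2-1, stomach cells, rdES4, late liver iPS, late stomach iPS, early stomach iPS and early liver iPS. Late liver and late stomach iPS cells, 0.30 apart on the log2 scale, differed by less than the ES lines did.

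GSC was bright on 1 array, that of the stomach cells. Its signal was 9.91 ± 2.29 in the late liver iPS line, not well above background, and 8.77 ± 1.91 in the late stomach line. At early passage it was 12.2 ± 2.18 in the liver line and 18.5 ± 2.94 in the stomach line. ES cells gave 19.5 ± 2.55 in rdES4 and 14.9 ± 2.53 in rdES2-1. In the somatic cells it was 1.84 ± 1.84 in liver, near the median negative control spot of that array at 1.65, and 70.9 ± 7.32 in stomach. The 6 iPS and ES arrays thus lay between the 2 somatic cultures, and liver cells stood at least 10.6-fold below stomach cells. With 1 culture each, this difference has no replicate check.

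In the main fit, on scaled processed signals without a block, no comparison with the somatic cultures passed for GSC. These cultures lay at opposite ends. The level averaged -4.76 ± 0.28 in iPS cells (SD, n = 2 lines) and -3.80 ± 3.78 in somatic cells (SD, n = 2), with a log2 difference of -0.96 ± 1.70 (SE, 95% interval -5.32 to 3.40, limma, adjusted p = 0.638). Without scaling between arrays it was 0.05 and with slide as a block 0.04. With each dim array set at its lowest well-measured signal it was -1.93 (adjusted p = 0.155). With normexp background correction, which adds an offset to the signals, it was -1.13 and passed (adjusted p = 0.0150). Leaving out liver cells gave -3.63 (adjusted p = 0.00160) and leaving out stomach cells 1.72 (adjusted p = 0.0116). Both fits rest on 1 somatic sample and leave out the wide spread between the cultures, and the 1.72 is set against liver cells that were not well above background. ES cells averaged -4.10 ± 0.40 (SD, n = 2 lines), with a difference from somatic cells of -0.29 ± 1.70 (SE, 95% interval -4.65 to 4.06, adjusted p = 0.890), of -2.97 without liver cells and of 2.38 without stomach cells. With normexp the difference between ES and somatic cells was -0.91 and also passed (limma, adjusted p = 0.0361).

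Taken by origin, GSC in the stomach line was 15.5-fold lower than in stomach cells at late passage and 7.54-fold lower at early passage. In the liver line the measured difference from liver cells was 1.37 (late) and 1.67 (early) on the log2 scale, but liver cells were not well above background. With them at the lowest signal that is, neither iPS array of the liver line was higher, so no direction is established there. Between late and early passage the log2 difference was -0.67 ± 1.56 (SE, 95% interval -4.49 to 3.15, limma, adjusted p = 0.963), -0.30 in the liver line and -1.04 in the stomach line. Both late arrays, at -5.11 and -5.08, lay below both early arrays, at -4.81 and -4.04, as the groups of 45.1% of all tested probes did not overlap. iPS and ES cells overlapped, with a difference of -0.66 ± 1.70 (SE, 95% interval -5.02 to 3.69, adjusted p = 0.966). In order of the scaled level, stomach cells came first, followed by rdES4, early stomach iPS, rdES2-1, early liver iPS, late stomach iPS, late liver iPS and liver cells. From rdES4 to late liver iPS cells neighbours differed by no more than the ES lines did.

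**Figure D3:**
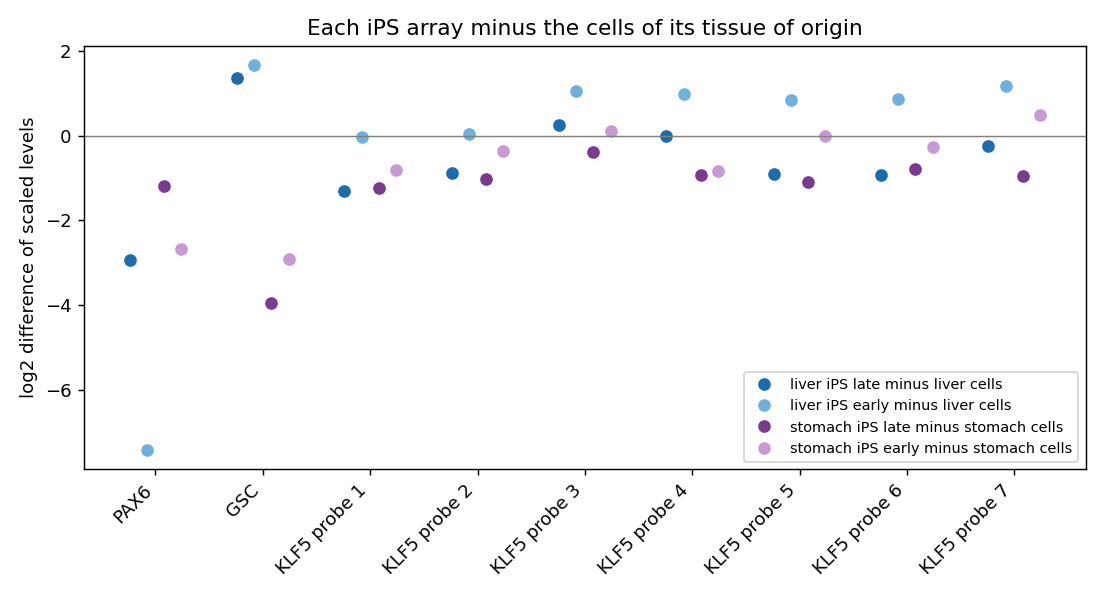
Difference of scaled log2 levels of each member probe between each iPS array and the somatic cells of its tissue of origin, with late and early passage of the liver and stomach lines as 4 points for each probe. PAX6 is below 0 in all 4, GSC is below 0 in the stomach line and at 1.37 and 1.67 in the liver line, against liver cells that were not well above background, and the KLF5 probes lie between -1.30 and 1.17.

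KLF5 was dim everywhere, and its probes were highest on the array of early liver iPS cells. Over 7 probes and 8 arrays, 26 of 56 values were well above background, with signals from 1.76 to 28.5. All 7 probes had their highest signal in early liver iPS cells, between 9.33 and 28.5. There 6 of the 7 were well above background, as in rdES4 (6), against 4 in the early stomach line, 3 in rdES2-1, 3 in the late liver line, 1 in the late stomach line, 2 in liver cells and 1 in stomach cells. Probe 1 was well above background on all 8 arrays and probe 7 on none.

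Probe 1 had a signal of 11.8 ± 2.16 in the late liver line and 8.32 ± 1.70 in the late stomach line. At early passage it was 28.5 ± 3.31 in the liver line and 11.5 ± 2.11 in the stomach line. In ES cells it was 13.1 ± 1.996 in rdES4 and 11.8 ± 1.98 in rdES2-1, and in somatic cells 13.99 ± 2.13 in liver and 10.2 ± 1.82 in stomach. Apart from early liver iPS cells, these signals span less than 6 units, against scanner errors of about 2. Probe 2 (A_04_P000826) had 13.1 and 5.94 in the late liver and stomach lines, 24.7 and 9.53 at early passage, 16.3 and 8.05 in rdES4 and rdES2-1, and 11.6 and 6.25 in liver and stomach cells. It was the probe with the widest gap between the ES lines among those tested, 2.30-fold, with rdES4 higher.

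**Figure D4:**
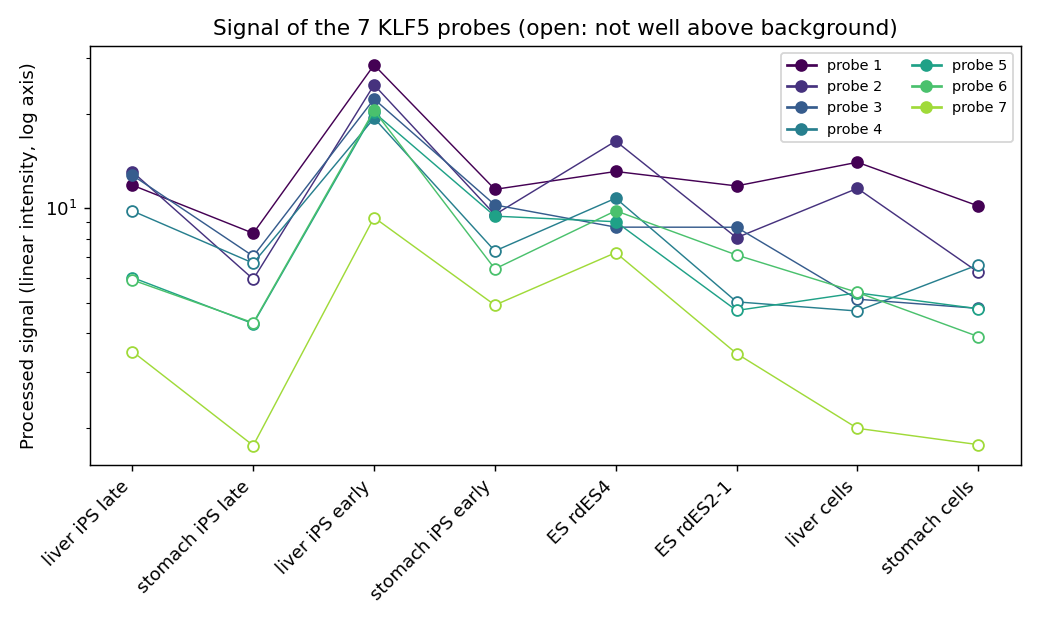
Processed signal (linear intensity on a log axis) of the 7 KLF5 probes on each array, with 1 line per probe and open points where the probe was not well above background. All 7 lines peak in early liver iPS cells, at 9.33 to 28.5.

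In the main fit, with processed signals scaled to the 75th percentile and no block, no KLF5 probe passed in any of the 4 comparisons. Of the 7 probes, 4 were bright enough to be tested. For iPS against somatic cells the differences of the tested probes ran from -0.84 to 0.26, with 5 of all 7 probes lower in sign and 2 higher. Probe 1 was at -0.84 ± 0.30 (SE, 95% interval -1.62 to -0.06, limma, adjusted p = 0.0573), but at 0.17 (adjusted p = 0.682) without scaling between arrays. Its value of -0.84 passed with tissue of origin as a replicate block (adjusted p = 0.0387), where it and not PAX6 was the member called. It also passed with only probes well above background on all 8 arrays (0.0384) and with dim arrays raised (0.0481), and without the early liver iPS array it was at -1.16 (adjusted p = 0.00523). Probe 3 passed as higher without scaling (1.27, adjusted p = 0.0147). With normexp background correction, which adds an offset to these dim signals, all 4 tested probes passed as lower instead. They were at -0.71, -0.76, -0.61 and -0.73 for probes 1, 2, 3 and 5. Probes 3, 4, 5 and 6 were not well above background in either somatic culture, and with these arrays at the lowest signal well above background the iPS mean of none of them was higher. For ES against somatic cells the tested probes ran from -0.82 to -0.06, and from 0.06 to 0.81 without scaling, so that the direction rests on how the arrays are scaled. Against ES cells, iPS cells differed by -0.12 to 0.32, with 95% intervals of the 4 probes between -1.60 and 1.37.

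Late passage gave lower KLF5 values than early passage for 7 of 7 probes in the liver line and 7 of 7 in the stomach line, while 35.8% of all tested probes were lower in both lines. The probes share 1 transcript and 1 hybridisation, so they are not replicates of the condition. Many of these values were dim. In the liver line probes 1, 2 and 3 were well above background at both passages and were 2.42-fold, 1.89-fold and 1.75-fold lower at late passage. Probes 4, 5 and 6 were so only at early passage, which was at least 1.98-fold, 2.49-fold and 2.53-fold brighter. In the stomach line probe 1 was 1.34-fold lower at late passage, and early passage was at least 1.31-fold, 1.40-fold and 1.29-fold brighter for probes 2, 3 and 5. The remaining pairs of values were both below that mark and give a sign only. Each pair is 1 array against 1, with no replicate check. Over both lines the largest difference among tested probes was that of probe 5 (A_04_P069343), -1.42 ± 0.44 (SE, 95% interval -2.50 to -0.34, limma, adjusted p = 0.533). It was above background on both early arrays and neither late array, which makes early at least 1.79-fold brighter. Only the early iPS group, where it was high, brought probe 5 into the tests. Its difference and p-value are thus no separate support for a fall with passage. Probe 1 was at -0.85 ± 0.39 (SE, limma, adjusted p = 0.624). Both its late levels, -4.85 and -5.16, lay below both early levels, -3.58 and -4.73, as the groups of 45.1% of all tested probes did not overlap.

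By origin, probe 1 was lower on the scaled level in late iPS cells than in the cells of origin, 2.47-fold in the liver line and 2.34-fold in the stomach line. For these pairs 62.4% and 58.3% of all tested probes differed less. At early passage its scaled level was 1.02-fold and 1.75-fold lower. In unscaled signal the early liver line was higher instead, at 28.5 against 13.99 in liver cells. The early stomach line was at 11.5 against 10.2 in stomach cells, so these directions rest on the scaling. At early passage the probes differed in sign. In the liver line 6 of 7 were higher in sign than in liver cells. With liver cells at the lowest signal well above background, probes 3, 4, 5 and 6 were at least 1.505-fold, 1.31-fold, 1.36-fold and 1.38-fold higher. In the stomach line 2 of 7 were higher in sign than in stomach cells. By level, probe 1 was highest in liver cells, next to early liver iPS cells at a difference of 0.03 on the log2 scale, and then stomach cells, rdES4, rdES2-1, early stomach iPS, late liver iPS and late stomach iPS. From rdES4 to late liver iPS cells each neighbour differed by no more than the ES lines did.

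Across the 4 comparisons, the members' calls stood against very different backgrounds. For ES against somatic cells, limma called 0 of 6 members while 64% of all tested probes passed, 34.4% as higher and 29.6% as lower in ES cells. Before adjustment 1 member was under 0.05, probe 1 of KLF5, whose ES levels lay below both somatic levels, as the groups of 82.7% of all tested probes did not overlap. For iPS against ES cells 0 of 6 members and 0% of all probes passed, with 1 member under 0.05 before adjustment, PAX6, and 2142 probes in all. For late against early iPS cells 0 of 6 members passed and 0.0277% of all probes, which is 8 probes, 0.00693% as higher and 0.0208% as lower at late passage. Before adjustment 2 members were under 0.05, PAX6 and probe 5 of KLF5, and 2413 probes in all. Probe 5 had entered the tests only through the early iPS group, where it was high. The iPS and ES comparisons share the same somatic samples and are not independent of each other.

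**Figure D5:**
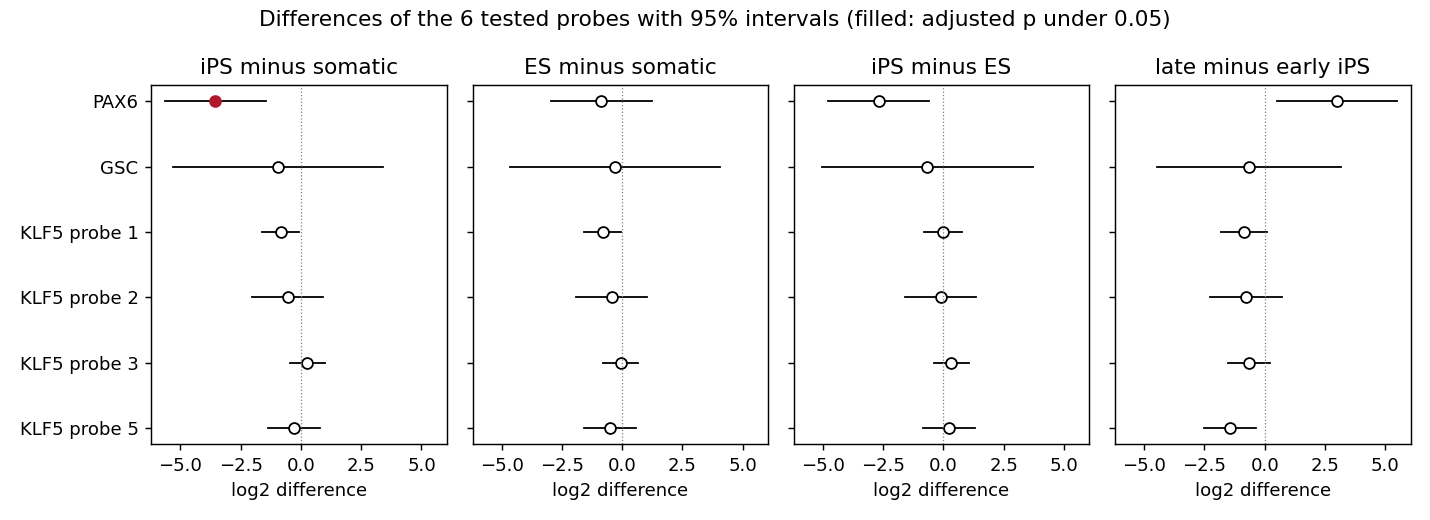
Log2 differences of the 6 tested member probes in the 4 comparisons, first-named group minus the second, with 95% intervals from limma. The only filled point, an adjusted p under 0.05, is PAX6 in iPS minus somatic cells at -3.55.

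Other developmental genes could be followed only where their accession matched a symbol, and no other PAX, SOX or KLF gene among the lists was tested. From the PAX family, neural and eye list, 3 of 28 genes were tested, all lens crystallins. CRYAA, the alpha A crystallin, was lower in iPS than in somatic cells (-2.16 ± 0.35 SE, adjusted p = 0.00419), CRYGS was also lower (-0.78 ± 0.15, adjusted p = 0.00732), and CRYAB did not pass (0.88 ± 0.47, adjusted p = 0.151). The list's median was -0.78, against 0.02 over all tested probes, and without scaling between arrays 1 of the 3 was higher and 1 lower. None of the 14 islet genes listed had a named probe. Both tested genes of the 33 on the mesendoderm and GSC pathway list fell in iPS cells under each scaling run. They were BMP2, a growth factor of the bone morphogenetic family (-5.14 ± 0.42 SE, adjusted p = 5.21e-04), and DKK1, a secreted Wnt inhibitor of the organizer region (-3.85 ± 0.76, adjusted p = 0.00829). In ES cells both fell too, and BMP2 was at 1.23 ± 0.45 (SE, adjusted p = 0.565) between late and early iPS cells.

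Of 68 other developmental transcription factors, 7 were tested, and 5 of them were lower in iPS than in somatic cells, with a median of -1.33 over the list. PPARD and PPARG, nuclear receptors of lipid metabolism, were lower (-3.65 ± 0.18 SE and -2.29 ± 0.25 SE). NR1H4, the bile acid receptor, was well above background on both somatic arrays and on none of the 6 others. In ES cells 5 were likewise lower than in somatic cells, and no gene of these lists passed between iPS and ES cells or between passages. Without scaling 3 of the 7 were lower in iPS cells, and with quantile normalization 4 were.

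Markers of other cell types moved between the same groups, and their part in the PAX6 difference was not tested. All 4 tested fibroblast and mesenchyme genes of 15 and all 4 tested smooth muscle genes of 9 were lower in iPS than in somatic cells, with medians of -7.66 and -2.95. Of the epithelium list 1 of 2 tested genes was higher, of the hepatocyte list 1 of 5 was higher and 1 lower, of the gastric list 1 of 2 was higher, of the leukocyte list the only tested gene was lower, and both tested pluripotency genes were higher. None of the KLF family and naive state list, 25 genes beside KLF5, had a tested probe with a symbol.

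Among the 510 other named genes tested, the profiles nearest to each member were found by the root mean square difference of levels centred on each gene's own mean over the 8 arrays. For GSC these were CD38, an enzyme of the cell surface that degrades NAD (0.66), HP, haptoglobin (0.70), and ANPEP, an aminopeptidase (0.80), against a spread of 1.44 for GSC itself. All of these were highest in stomach cells and lowest in liver cells, for CD38 at -1.77 in stomach and -5.19 in liver. For PAX6 the nearest were GC, the vitamin D binding protein (1.42), the growth hormone receptor GHR (1.47) and the parathyroid hormone receptor PTH1R (1.49), against a spread of 2.10, so that none followed it closely. GC was well above background on only 3 of the 8 arrays, so much of its profile is dim. For probe 1 of KLF5 they were EZR, ezrin (0.26), the phosphofructokinase PFKP (0.26) and the crystallin CRYBB2 (0.27), against a spread of 0.57.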

How the data were processed

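Total RNA was labelled with Cy3 and hybridised to 8 Agilent arrays of 45220 spots, 1417 of them controls. Per the file headers, the deposited intensities are the processed signals of the scanner software (Agilent Feature Extraction 10.5.1.1), corrected for background, with outlying spots marked. They are not scaled between arrays. The authors' deposited log2 table matched these intensities after scaling to the 75th percentile and centring each probe on its median (r = 1.00 on each array) with column medians from -0.04 to 0.34, and was used only as an alternative. No spot was saturated. Log2 processed signals minus the 75th percentile of each array were computed, unmarked spots of a probe were averaged, and 19 probes without a clean spot on some array were left out. A probe was tested where it was well above background (for several spots, on most of them) on both arrays of a group, which left 28853. Limma 3.58.1 in R 4.3.3 fitted lines as units in 3 groups (passages of a line averaged), or all 8 arrays in 4 groups for passage, two-sided with Benjamini-Hochberg adjustment and a threshold of 0.05. The code of the fit was run on simulated data with normal noise and few changed probes. That setting is simpler than these data, so it does not test the calls made here. "At least" folds set a dim array at its lowest signal well above background.

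The arrays lay on 3 slides, of 4, 2 and 2 arrays. Late and early arrays of a line pair by line name, and their deviations from the group means correlated at 0.22. With 2 arrays a group, their number limits the precision. Symbols came from a RefSeq table of the assembly mOryCun1.1 and named 1933 probes of 680 genes, of which 511 were tested. A gene was represented by its brightest probe. No probe, promoter or protein sequences were used here. The members and 12 lists with 260 symbols were chosen with earlier results of these data known. The text names all member probes, POU5F1, up to 4 called genes per list by size of difference in iPS against somatic cells, and the 3 nearest profiles per member. ALB, APOA1, APOE, HPX, ATP4B, PGC and CRYAB fall outside this rule and were named after their values were seen. A withheld item is not reported here. Alternatives were quantile normalization, no scaling, normexp (offset 50) on median instead of mean signals, which the files do not hold, filters on dim probes, the authors' table, blocks, and leaving out each array. After the data were seen, keeping marked spots and raising dim arrays to the lowest signal well above background were added.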

Additional observations from a re-analysis of the deposited data

Results flagged for a closer look

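The measured GSC differences had opposite signs in the 2 origins. Averaged over both passages, the log2 difference was 1.52 between iPS cells of the liver line and liver cells, and -3.43 between iPS cells of the stomach line and stomach cells. Both passages had the same sign within each origin, and the signs of 10.9% of all tested probes differed between origins at late passage and of 11.8% at early passage. The difference between origins was not tested, since each rests on 1 line and 1 culture. Liver cells were not well above background for GSC, so neither the size nor the direction of the liver difference is established.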

How the results depend on the processing

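PAX6 in iPS against somatic cells stayed lower under every alternative that could test it and lost its call with slide as a block and with the tissue of origin as a replicate block. With slide as a block, the stomach line was the only unit on slide 3. The iPS value in such fits against somatic or ES cells therefore came from the liver line alone. The replicate block by iPS line changed no call between passages (0 of 6 members, PAX6 2.99, adjusted p = 0.315). Of 226 member values recomputed under settings other than leaving out an array, 189 kept direction and call, 2 lost a call, 15 gained one and 20 changed sign. Leaving out single arrays kept 171 of 192, with 5 calls gained and 16 sign changes. The authors' table and keeping marked spots changed no call.

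The number of members called for iPS against somatic cells was 1, and it was 2 without scaling, 6 with normexp, 2 with dim arrays raised, 0 with slide as a block and 1 to 2 without single arrays. For ES against somatic cells it was 0, and 5 with normexp, 1 with only probes well above background on all 8 arrays, where 1 member was tested, 1 with slide as a block and 0 to 1 without single arrays. With normexp an offset of 50 is added to member signals that are mostly smaller. Without scaling, iPS against somatic cells gave 0.0515 for GSC and 0.17, 0.45 and 0.72 for KLF5 probes 1, 2 and 5, and ES against somatic cells 0.58 for GSC and 0.0571, 0.43, 0.81 and 0.37 for probes 1, 2, 3 and 5. Probe 3 reversed in iPS against somatic cells with normexp (-0.61, where it passed as lower) and with dim arrays raised (-0.15). It also reversed in ES against somatic cells with quantile normalization (0.0658). GSC with slide as a block was 0.0408 in iPS against somatic cells and 0.33 in iPS against ES cells. In iPS against ES cells, probe 1 reversed with quantile normalization (0.12), without scaling (0.11) and with slide as a block (0.16), probe 2 with quantile normalization (0.0194) and without scaling (0.0190), and probe 5 with normexp (-0.0243).

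Without single arrays, iPS against somatic cells ranged from -0.72 to 0.15 for probe 5 and from -3.63 to 1.72 for GSC. ES against somatic cells ranged from -1.89 to 0.14 for PAX6, -1.04 to 0.16, -0.15 to 0.0280 and -1.06 to 0.0537 for probes 2, 3 and 5, and -2.97 to 2.38 for GSC. iPS against ES cells ranged from -0.34 to 0.29, -0.72 to 0.48 and -0.34 to 0.78 for probes 1, 2 and 5. Counts over all probes also moved: 66.6% were called in iPS against somatic cells, of which 51.4% were higher, against 82.5% higher without scaling, 33.2% with normexp and 38.8% without the filter, and the median log2 difference over all probes was 0.02, 1.03, -0.40 and -0.47 in turn. With a slide block the number of probes called was 9924, against 19220 without it. The 8 probes called between passages became 0 without the filter, with probes well above background on all arrays, with dim arrays raised, with the slide or line block, and 0 to 1 without single arrays. Between iPS and ES cells 7 probes were called with all 8 arrays as independent samples and 2 without scaling.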
